A study of Mus musculus with 100 samples.

Results

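Neurons are classed by the transmitter they release, and 10 genes that encode transmitter-synthesising enzymes and vesicular or membrane transporters were followed here through the gene tables of 37 RNA libraries of a study of the H3K4 methyltransferases Mll3 and Mll4 (gene symbols Kmt2c and Kmt2d). The genes were taken from a list of transmitter genes by a rule that uses no measured value, though with earlier results of these data known, and are 10 of 22463 genes with a symbol in the tables. They are Slc17a6 and Slc17a7 (glutamate), Slc32a1, Gad1 and Gad2 (GABA), Slc6a5 (glycine), Th (catecholamines), Chat and Slc18a3 (acetylcholine) and Tph2 (serotonin).

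The cultures came from mouse embryonic stem cells (ESCs), and all of them lacked Mll3. Cells labelled Mll3-/-;Mll4flox/flox, called flox here, served as the reference, and cells labelled Mll3-/-;Mll4KI/KI, called KI, were represented by clones 27 and 48. What change KI denotes is not spelled out in the labels. ESCs were kept in 2i+LIF medium and passed through hanging-drop aggregates. For neural cultures, 5 µM retinoic acid was added after day 4. At day 8 the aggregates were dissociated into neural progenitors and plated on laminin, and neurons formed in B-27 medium until day 16, so that time and plating cannot be told apart. Each neural group (flox or KI, day 8 or 16) had 2 libraries. Other cultures were ESCs and embryoid bodies (EBs) at days 4 and 10, with 1 flox and 2 KI libraries a stage, trophectoderm (TE) cultures at day 6 driven by an introduced CDX2, and extraembryonic endoderm (ExEn) cultures at day 5, with 2 libraries a genotype. Embryos taken whole, at E8.5 or E9.5, were labelled Mll3flox/KI;Mll4flox/+;Sox2-Cre (control) or Mll3flox/KI;Mll4flox/KI;Sox2-Cre (KI), with 3 of each at each stage. A further neural day 8 RNA library, labelled as a double knockout of Mll3 and Mll4, was not analysed here. The Sox2 promoter drives Cre in the epiblast, from which the embryo proper forms, and every embryo, controls included, carried Cre and a Mll3 KI allele. Because the labels do not say that libraries came from separate cultures, p-values for cultures measure the spread between these libraries, which may be technical.

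Levels are given as CPM, the reads of a gene scaled to the library's summed gene reads, and levels of different genes were compared only as the deposited RPKM, which also divides by transcript length. Summed over genes, each neural library held between 39.0 and 59.9 M reads, each embryo between 20.1 and 26.9 M, and each of the other culture libraries between 18.9 and 27.6 M, so that 3 reads corresponded to between 0.0501 and 0.159 CPM. These limits and all intervals on read ratios cover counting error only. Tests were made with edgeR's quasi-likelihood method over all genes, with Benjamini-Hochberg adjustment, and a gene was called at an adjusted p under 0.05. Kmt2c still had 27.6 to 99.4 CPM in the 25 culture libraries and Kmt2d 149 to 334 CPM, and gene totals cannot show whether the altered exons were present, so these levels do not check the genotype labels. The neural label was borne out by 12 pan-neuronal markers (Tubb3, Map2, Snap25 and others), which summed to 1367 to 2258 CPM at day 8 and 5001 to 7957 CPM at day 16, against at most 414 CPM in any other culture.

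A neuron's transmitter depends on a small battery of enzymes and transporters. Glutamate is loaded into vesicles by the products of Slc17a6 and Slc17a7. GABA is made from glutamate by the 2 glutamate decarboxylases (Gad1, Gad2) and loaded, like glycine, by the product of Slc32a1, whereas Slc6a5 recovers glycine from the synapse. In hindbrain and spinal cord, regions that retinoic acid favours in culture, Slc17a6 is the usual glutamatergic transporter and Slc17a7 is more typical of the later forebrain.

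The upstream sequences of 7 of the genes are shown: Slc17a6, Th, Slc18a3, Gad2 and Tph2, whose levels are followed most closely below, and Slc32a1 and Gad1 as the GABA genes with the highest RPKM at day 16. Each is the 250 bases before the gene's first annotated start in RefSeq (build GRCm38.p6), read on the gene's strand, with matches to any of 6 short motifs in capitals. All 10 genes had an entry, with 12 starts between them. Slc17a6 and Slc6a5 have 2 starts each, and which of them the counted transcript uses is not known here.
Slc17a6, chr7:51621580-51621829, plus strand: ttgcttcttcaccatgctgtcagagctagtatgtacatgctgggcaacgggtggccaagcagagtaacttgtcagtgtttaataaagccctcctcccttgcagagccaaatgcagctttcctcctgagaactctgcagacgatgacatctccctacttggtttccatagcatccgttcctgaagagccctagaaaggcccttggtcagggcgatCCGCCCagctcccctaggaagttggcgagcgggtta
Slc32a1, chr2:158610508-158610757, plus strand: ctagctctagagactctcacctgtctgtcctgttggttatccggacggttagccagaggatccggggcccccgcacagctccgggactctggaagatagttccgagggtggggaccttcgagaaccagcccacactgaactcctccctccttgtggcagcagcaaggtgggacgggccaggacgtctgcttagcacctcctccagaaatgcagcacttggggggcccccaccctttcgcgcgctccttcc
Gad1, chr2:70561879-70562128, plus strand: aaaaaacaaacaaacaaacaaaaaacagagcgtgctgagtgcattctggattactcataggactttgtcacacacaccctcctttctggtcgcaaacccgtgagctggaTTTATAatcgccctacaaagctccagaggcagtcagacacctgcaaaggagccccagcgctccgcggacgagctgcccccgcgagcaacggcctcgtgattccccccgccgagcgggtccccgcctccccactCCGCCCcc
Gad2, chr2:22622077-22622326, plus strand: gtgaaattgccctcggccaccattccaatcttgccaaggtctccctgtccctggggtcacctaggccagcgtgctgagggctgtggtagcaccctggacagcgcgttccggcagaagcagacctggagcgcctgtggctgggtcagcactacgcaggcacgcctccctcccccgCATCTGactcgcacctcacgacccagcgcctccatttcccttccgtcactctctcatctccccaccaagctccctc
Th, chr7:142899996-142900245, minus strand: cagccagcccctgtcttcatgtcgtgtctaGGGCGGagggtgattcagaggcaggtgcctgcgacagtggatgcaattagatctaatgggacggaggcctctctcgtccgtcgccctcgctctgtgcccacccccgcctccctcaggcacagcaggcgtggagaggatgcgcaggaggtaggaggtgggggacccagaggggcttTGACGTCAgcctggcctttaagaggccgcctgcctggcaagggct
Slc18a3, chr14:32464851-32465100, minus strand: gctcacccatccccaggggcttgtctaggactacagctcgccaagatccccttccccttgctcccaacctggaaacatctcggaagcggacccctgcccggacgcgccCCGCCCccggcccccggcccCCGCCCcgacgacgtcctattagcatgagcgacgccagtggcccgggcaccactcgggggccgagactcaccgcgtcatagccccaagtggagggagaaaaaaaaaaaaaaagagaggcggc
Tph2, chr10:115185023-115185272, minus strand: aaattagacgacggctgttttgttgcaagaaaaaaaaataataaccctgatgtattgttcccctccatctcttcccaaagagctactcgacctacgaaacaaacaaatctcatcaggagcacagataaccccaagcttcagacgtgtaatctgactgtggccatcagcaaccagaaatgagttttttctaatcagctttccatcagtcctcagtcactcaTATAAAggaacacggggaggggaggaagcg

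The motifs searched on both strands were the cAMP response element TGACGTCA, the TATA box TATAAA, the GC box GGGCGG, the E-boxes CAGCTG and CAGATG, and the homeodomain core TAATTA. The 8-letter cAMP response element lay 45 to 38 bases before the start of Th and before no other member, and 1.55% of 32851 upstream windows of this length held it. Tph2 had a TATA box 30 to 25 bases before its start, where this element usually lies, and Gad1 had one in the reverse direction much farther away, at 141 to 136 bases. The window before the other start of Slc17a6, not shown, held an E-box (CAGATG) and the homeodomain core (TAATTA; 4.84% of windows), so the motifs listed for this gene depend on the start. The TATA letters were found in 12.4% of windows. GC boxes, found in 32.7% of windows, lay before the first starts of 5 of the 10 genes (Slc17a6, Slc17a7, Gad1, Th and Slc18a3). Gad2 had an E-box (CATCTG on the gene's strand; 14.4% of windows), and the Slc32a1 window held none of the 6 motifs. A match of letters is a description and does not show that a factor was bound.

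At day 8, Th and Slc18a3 were lower in KI than in flox cultures, whereas the libraries of the 2 genotypes overlapped for each of the GABA and glycine genes. Of the 9 members tested (Tph2 had too few reads), 2 were called, both lower. Over all 16439 genes tested, 19.5% were called, 6.3% higher and 13.2% lower. The member median log2 difference was -0.22, against 0.0047 over all genes. The 2 flox libraries of this day differed less than any other pair within a group (chi-square per degree of freedom 1.50, others 2.76 to 54.8). They may be near repeats of 1 sample, which would make the day 8 p-values and intervals too narrow.

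Th encodes tyrosine hydroxylase, the rate-limiting enzyme of catecholamine synthesis. It stood at 6.47 and 6.33 CPM in the flox libraries and at 1.03 and 1.02 CPM in KI clones 27 and 48. The groups did not overlap, and Th was 6.07-fold lower in KI (95% interval 4.48 to 8.23; log2 change -2.60, SE 0.20, n = 2 a group, edgeR adjusted p = 2.85e-06). Slc18a3 encodes the vesicular acetylcholine transporter and is nested in the Chat gene. Its levels were 1.85 and 2.09 CPM in flox and 0.712 and 0.675 CPM in KI, again without overlap. That was 2.78-fold lower in KI (2.02 to 3.83; log2 change -1.48, SE 0.21, edgeR adjusted p = 0.000312). Chat, the enzyme that makes acetylcholine, was near the limit of detection with 11 and 12 reads in flox and 2 and 4 in KI, and its difference missed the threshold (log2 -1.84, SE 0.62, edgeR adjusted p = 0.0575) but passed it with only the day 8 libraries fitted (adjusted p = 0.0356). Without strand information in the sources, reads of Chat and Slc18a3 could be split differently where their transcripts overlap.

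Slc32a1 had 27.1 and 28.0 CPM in flox and 30.8 and 26.9 CPM in KI at day 8. The ranges overlapped, and the interval of the log2 difference ran from -0.18 to 0.38. Gad1 had 10.4 and 9.62 CPM in flox and 10.1 and 6.79 CPM in KI. KI clone 48 was the low library, and without clone 27, the other KI library, Gad1 was called lower in KI (log2 -0.52, edgeR adjusted p = 0.0234). Gad2 had 6.14 and 6.08 CPM against 7.85 and 5.67 CPM, and Slc6a5 had 4.80 and 4.89 CPM against 6.32 and 4.30 CPM. In both, the flox libraries lay between the 2 KI clones. The vesicular glutamate transporter Slc17a6 was barely present at this stage, with 8 and 16 reads in flox and 12 and 16 in KI. Slc17a7 had 0.950 and 0.997 CPM in flox and 0.827 and 0.512 CPM in KI, lower in both clones but not called (edgeR adjusted p = 0.328).

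Markers of other cells moved with these groups at day 8. Of the 12 pan-neuronal markers, 0 rose and 10 fell in KI, and their sum was 2256 to 2258 CPM in flox and 1367 to 1574 CPM in KI. The 7 progenitor markers summed to 1467 to 1483 and 1496 to 1497 CPM. All 7 endoderm markers tested fell, from a sum of 111 to 112 CPM to one of 30.1 to 32.7 CPM, and neural crest markers summed to 110 to 113 CPM in flox and 50.2 to 58.7 CPM in KI (2 of 4 lower). Mesenchyme and mesothelium markers summed to 369 CPM in both flox libraries and 126 to 178 CPM in KI (5 of 8 lower), and blood markers to 5.94 to 6.14 CPM and 0.138 to 0.246 CPM (2 of 2 tested lower). Per 1000 CPM of pan-neuronal marker, Th stood at 2.87 and 2.80 in flox and 0.657 and 0.748 in KI, still lower, whereas Slc32a1 stood at 12.0 and 12.4 in flox and 19.6 and 19.7 in KI. Gad1 (4.62 and 4.26 against 6.39 and 4.97), Gad2 (2.72 and 2.69 against 4.99 and 4.15) and Slc6a5 (2.13 and 2.16 against 4.01 and 3.14) had the same order on that scale. The part of these cell types in the gene differences was not tested. In bulk RNA, fewer cells of a type and less RNA per cell cannot be told apart.

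At day 16, Slc17a6 was about 3 times as high in KI as in flox cultures, the 2 acetylcholine and catecholamine genes called at day 8 were again lower, and the GABA genes differed little. Of 9 members tested, 6 were called, 3 higher and 3 lower, where 46.9% of all genes were called (27.1% higher and 19.7% lower). Th, among the 3 lower, entered the test through its day 8 levels and had few reads left at day 16. The member median was 0.21 and the all-gene median 0.086.

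Slc17a6 had 51.5 and 44.5 CPM in flox and 134 and 127 CPM in KI clones 27 and 48. Both clones lay far above both flox libraries. The rise was 3.12-fold (2.67 to 3.65; log2 1.64, SE 0.10, n = 2 a group, edgeR adjusted p = 2.57e-07), and the ratio of pooled CPM without the TMM scaling used in the test was 2.68. Slc17a7 remained a trace gene, with 0.309 and 0.615 CPM in flox and 0.148 and 0.134 CPM in KI. It was called lower (log2 -1.44, edgeR adjusted p = 0.0243), a call that rested on flox library 2 (log2 -0.91, adjusted p = 0.184 without it) and was also lost without clone 27 (adjusted p = 0.0792), without clone 48 (adjusted p = 0.112) and with DESeq2 (adjusted p = 0.0585).

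Slc32a1 reached 115 and 153 CPM in flox and 167 and 152 CPM in KI at day 16. The flox library 2 overlapped the KI range. Gad1 reached 123 and 113 CPM in flox and 137 and 143 CPM in KI, without overlap. Both were called higher in KI at a log2 difference of 0.45 (SE 0.13 each; edgeR adjusted p = 0.0113 for Slc32a1 and 0.0134 for Gad1). With library totals in place of TMM, the differences were 0.25 each and neither was called (edgeR adjusted p = 0.138 and 0.160). TMM factors were 1.03 in both flox libraries and 0.91 and 0.88 in KI. That choice moved the all-gene median from 0.086 to -0.12, and the share of called genes that were higher from 57.9% to 30.1% (41.9% with upper-quartile scaling). Read against the all-gene median under the same scaling, Gad1 and Slc32a1 each lay 0.36 above it, with TMM and with library totals. Leaving out flox library 1 (0.25, adjusted p = 0.0607) or clone 27 (0.40, adjusted p = 0.0633) also ended the call of Slc32a1, as did fitting only the day 16 libraries (adjusted p = 0.0684). Leaving out flox library 2 (0.40, adjusted p = 0.103) or clone 48 (0.41, adjusted p = 0.0700) ended that of Gad1, as did upper-quartile scaling (adjusted p = 0.0519).

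Gad2 had 34.0 and 31.5 CPM in flox and 33.4 and 32.3 CPM in KI, and Slc6a5 had 46.8 and 47.1 CPM in flox and 58.1 and 43.1 CPM in KI. Both overlapped between genotypes and were not called (edgeR adjusted p = 0.192 and 0.108). Without clone 48, Slc6a5 was called higher (log2 0.50, adjusted p = 0.0280). For Gad2 the interval of the log2 difference ran from -0.064 to 0.48. Gad1 was thus called and Gad2 was not, but the intervals of their log2 differences (0.17 to 0.73 for Gad1) overlapped, and the difference between the genes was not tested in the model. Their RPKM ratio (Gad1 over Gad2) was 6.32 and 6.24 in flox and 7.17 and 7.71 in KI.

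Slc18a3 had 2.33 and 2.46 CPM in flox and 1.17 and 1.09 CPM in KI at day 16, a 1.84-fold lower level (1.38 to 2.46; log2 -0.88, SE 0.19, edgeR adjusted p = 0.00251). As at day 8, the genotypes did not overlap. Th had nearly vanished, with 4 and 4 reads in flox and 1 and 0 in KI. It passed the read filter of the shared fit through its day 8 libraries, not through those of day 16. Although it was called (edgeR adjusted p = 0.0259), the pooled ratio of flox to KI was 9.69 with a counting interval of 1.30 to 430, and the call was lost without flox library 2 (adjusted p = 0.0928), without clone 48 (adjusted p = 0.209) and with DESeq2 (adjusted p = 0.0979). Chat had 7 and 7 reads in flox and 1 and 5 in KI and was not called (edgeR adjusted p = 0.147). Chat, too, passed the filter through the flox libraries of day 8. Tph2 had at most 4 reads in any neural library and was not tested.

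**Figure D1:**
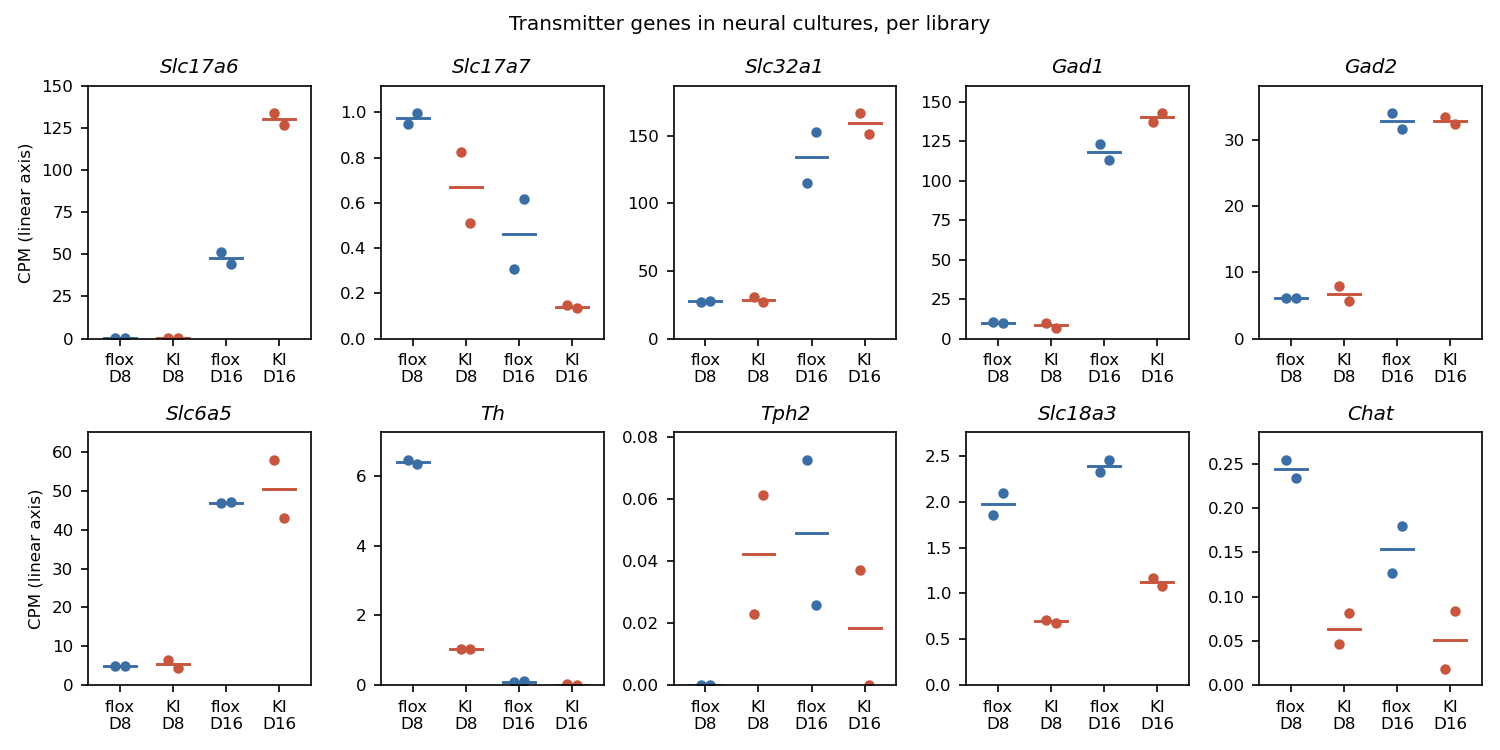
CPM on linear axes for the members in the 8 neural libraries, 1 panel a gene; points are libraries and short bars are group means (n = 2). Slc17a6 at day 16 lies at 44.5 to 51.5 CPM in flox and 127 to 134 CPM in KI, whereas Th stands at 6.33 to 6.47 CPM in flox and 1.02 to 1.03 CPM in KI at day 8.

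**Figure D2:**
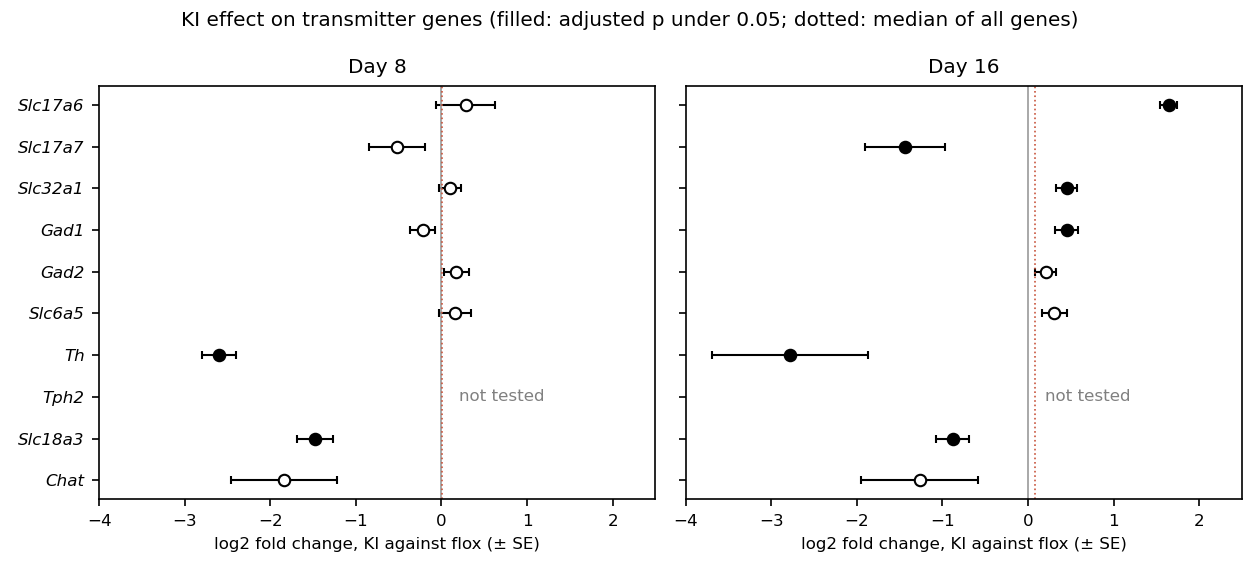
Log2 fold change of KI against flox from edgeR at day 8 and day 16 for each member, with bars of 1 SE; filled points had an adjusted p under 0.05, and the dotted line is the median of all genes. Slc17a6 moves from 0.28 at day 8 to 1.64 at day 16, while Slc18a3 is below 0 on both days; Th at day 16 rests on 9 reads in all.

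Markers of other cells also moved at day 16. All 12 pan-neuronal markers rose in KI, from a sum of 5001 to 5274 CPM in flox to 7441 to 7957 CPM. All 8 mesenchyme and mesothelium markers fell, from 3879 to 4069 CPM to 891 to 1121 CPM. Glia markers summed to 179.9 to 188 CPM in flox and 151 to 163 CPM in KI (2 of 8 tested higher, 3 lower). At day 8 the sums were 169 to 176 CPM in flox and 181 to 185 CPM in KI (3 of 8 higher, 1 lower). Between the days, 6 of these 8 rose and 1 fell in flox (median log2 2.33), and 5 rose and 2 fell in KI (1.24). The list summed to 230 CPM in flox ESCs and 419 to 421 CPM in flox ExEn, so its sum does not measure glia. Endoderm markers summed to 76.7 to 77.4 CPM in flox and 11.0 to 20.9 CPM in KI (3 of 7 tested lower), and progenitor markers to 531 to 577 CPM and 488 to 586 CPM. Per 1000 CPM of pan-neuronal marker, Slc17a6 was still higher in KI (9.76 and 8.90 in flox, 18.0 and 15.9 in KI). On the same scale Gad1 (23.4 and 22.6 in flox, 18.5 and 18.0 in KI), Gad2 (6.44 and 6.30 against 4.49 and 4.06) and Slc6a5 (8.88 and 9.41 against 7.80 and 5.42) lay lower in KI, and Slc32a1 overlapped (21.8 and 30.6 against 22.4 and 19.0). Slc18a3 stood at 0.441 and 0.492 against 0.157 and 0.136. These ratios are descriptions, since 2 libraries against 2 cannot give an exact permutation p below 0.333. As at day 8, the part of these cell types in the gene differences was not tested.

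The make-up of transmitter expression, in RPKM, changed with day and genotype. In flox cultures at day 8, mean RPKM ran from Slc32a1 (6.36) through Th (2.36), Gad1 (2.01), Slc6a5 (1.23) and Gad2 (0.703) to Slc18a3 (0.529). Th made up 17.2 to 17.7% of the members' summed RPKM in flox and 3.06 to 3.75% in KI, and Slc32a1 46.5 to 47.7% in flox and 57.2 to 61.6% in KI. In flox cultures at day 16 the order was Slc32a1 (35.5), Gad1 (27.1), Slc6a5 (13.6), Slc17a6 (8.22), Gad2 (4.31) and Slc18a3 (0.735). In KI it was Slc32a1 (40.3), Gad1 (30.8), Slc17a6 (21.4), Slc6a5 (14.1), Gad2 (4.15) and Slc18a3 (0.331), with Slc17a6 and Slc6a5 in exchanged places. At day 16 no neighbours among these 6 overlapped between their 2 libraries in either genotype. The share of Slc17a6 was 8.22 to 10.2% in flox and 19.1 to 19.4% in KI. Its RPKM ratio to Gad1 was 0.312 and 0.295 in flox and 0.729 and 0.663 in KI, and its ratio to Slc32a1 was 0.291 and 0.189 in flox and 0.521 and 0.543 in KI. Neither ratio overlapped between genotypes, and each gave an exact 2-sided permutation p of 0.333, the smallest this design allows.

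**Figure D3:**
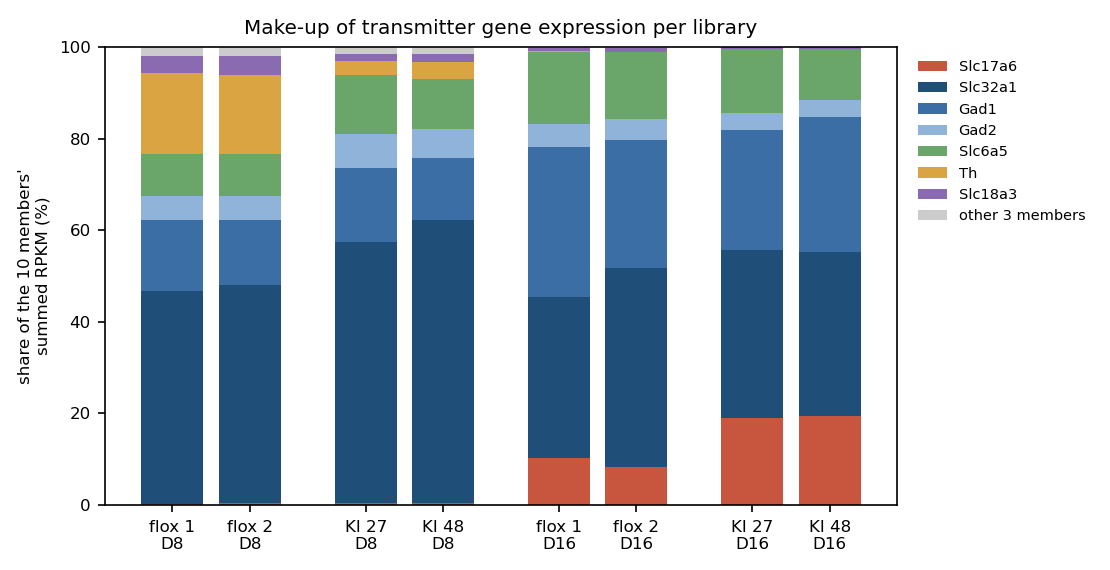
Share of the 10 members' summed RPKM (percent, linear axis) taken by each gene in each of the 8 neural libraries, as stacked bars. Th takes 17.2 to 17.7% in flox at day 8 and 3.06 to 3.75% in KI, and Slc17a6 takes 19.1 to 19.4% in KI at day 16 against 8.22 to 10.2% in flox.

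Between day 8 and day 16, Slc17a6 and the GABA and glycine genes rose in both genotypes, and Th and Slc17a7 fell. In flox, 5 members rose and 2 fell of 9 tested, where 77.1% of all genes were called (38.4% higher and 38.7% lower). Slc17a6 rose 191-fold (147 to 250), Gad1 12.1-fold, Slc6a5 9.91-fold, Gad2 5.49-fold and Slc32a1 4.98-fold, each called in every alternative run. Th fell from 603 to 8 reads over 2 libraries each, a pooled ratio of 75.2 (37.9 to 175). Slc17a7 also fell (log2 -1.10, edgeR adjusted p = 0.0116), a call lost without flox day 16 library 1 (log2 -0.62, adjusted p = 0.160), without flox day 8 library 2 (adjusted p = 0.0516) and with DESeq2 (adjusted p = 0.105). In KI, 6 members rose and 2 fell, where 79.9% of all genes were called (40.7% higher and 39.2% lower). Slc17a6 rose 491-fold (378 to 637), Gad1 19.2-fold, Slc6a5 11.0-fold, Slc32a1 6.35-fold and Gad2 5.61-fold. Slc18a3 rose by 0.90 on the log2 scale in KI (edgeR adjusted p = 0.00235), and by 0.31 in flox, which was not called (edgeR adjusted p = 0.144). Th fell in KI from 95 reads to 1, a pooled ratio of 117 (20.5 to 4674), and Slc17a7 by 2.02 on the log2 scale.

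The difference between the KI effects at the 2 days was tested as an interaction, and 2 of 9 members were called, both larger at day 16, where 33.2% of all genes were called (19.2% higher). For Slc17a6 the KI effect was larger by 1.36 on the log2 scale (SE 0.37, edgeR adjusted p = 0.0145). That call rested on 8 to 16 reads a library at day 8 and was lost without flox day 8 library 2 (0.91, adjusted p = 0.315) or without KI day 8 clone 27 (1.24, adjusted p = 0.0582). For Gad1 it was larger by 0.67 (SE 0.20, edgeR adjusted p = 0.0211), a call lost with library totals in place of TMM (0.50, adjusted p = 0.0814) and without flox day 8 library 1, flox day 16 library 2, KI clone 48 at day 8 or KI clone 48 at day 16 (0.42 to 0.62, adjusted p = 0.0640 to 0.0877). With library totals, 37.6% of all called genes were higher, in place of 57.8%. For Slc32a1 the difference was 0.35 (edgeR adjusted p = 0.159) and was called only without flox day 16 library 2 (0.58, adjusted p = 0.00954).

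Other genes of transmitter supply and removal were called in both directions, at day 16 in shares near those over all genes. At day 8, 3 of 28 such genes tested were higher and 8 lower in KI (6.3% and 13.2% over all genes), with a median log2 difference of 0.01. Slc17a8, the third vesicular glutamate transporter, rose from 1.09 to 10.6 CPM (log2 3.31, edgeR adjusted p = 1.8e-06). The glial glutamate transporter Slc1a2 (log2 0.49) and the GABA-degrading enzyme Aldh5a1 (0.45) also rose. The serotonin transporter Slc6a4 (-1.80), acetylcholinesterase Ache (-1.23), the aromatic amino acid decarboxylase Ddc (-1.23) and the GABA transporter Slc6a13 (-1.07) fell. At day 16, 8 of 28 were higher and 6 lower (27.1% and 19.7% over all genes), with a median of -0.01. Among those that rose, Aldh5a1 (0.77) and Abat (0.56) degrade GABA, Pts (0.51) serves the synthesis of the cofactor tetrahydrobiopterin, and Glul (0.49) makes glutamine. Slc6a13, a GABA transporter, stood at 1.96 CPM in flox and 0.0176 CPM in KI. Ddc fell from 0.700 to 0.0436 CPM (log2 -3.73), and the glial glutamate transporter Slc1a3 fell by 1.21 on the log2 scale. Slc17a8 was no longer called at day 16 (0.86, edgeR adjusted p = 0.105).

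Transcription factors that specify transmitter classes were mixed as well. Over all genes, 6.3% were called higher and 13.2% lower at day 8, and 27.1% and 19.7% at day 16. Of 13 glutamatergic selectors tested at day 8, 5 were higher in KI and 3 lower. Tlx3, a glutamatergic selector of the dorsal spinal cord, rose from 4.37 to 17.6 CPM (log2 2.04), together with Tlx1, Neurod2 (2.64) and Barhl2 (2.23). Lmx1b (-2.02), Neurod1 (-0.78) and Neurog1 (-0.61) fell. At day 16, when Slc17a6 itself was higher, 1 of 13 rose and 3 fell. Pou4f1, a factor of sensory and dorsal interneurons, rose from 50.7 to 112 CPM (log2 1.35), and Neurog2 (-2.63), Neurod2 (-2.06) and Tbr1 (-0.94) fell. Of 14 inhibitory selectors, 3 rose at day 8, among them Gata3 (1.90) and Pax8 (0.59), and 2 fell (Tal1 -2.78, Lhx5 -0.96). At day 16, 2 rose (Tal1 2.19, Pax8 0.71) and 3 fell, among them Gbx1 (-0.80) and Lhx5 (-0.57).

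Cholinergic selectors were few. Of 5 tested, Lhx8 (1.96) and the motor neuron factor Mnx1 (1.05) rose and Lhx3 (-1.28) fell at day 8, and Isl1 (1.11) and Mnx1 (0.72) rose at day 16 with none called lower. Of 10 monoamine selectors, 4 rose and 0 fell at day 8, when Th was lower: Nkx2-2 (5.80), En2 (3.59), Phox2a (0.78) and Insm1 (0.55). At day 16, 5 rose, among them En2 (2.37) and Foxa2 (2.29), with Nkx2-2 at 0 reads in flox, and Lmx1a (-2.42) and Nr4a2 (-0.65) fell.

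In whole embryos the members were scarce, and 6 of the 10 had enough reads to be tested (not Slc17a6, Slc6a5, Chat and Tph2). Slc32a1 and Slc18a3 were higher in KI than in control embryos at E8.5, and Slc18a3 and Th were lower at E9.5. At E8.5, 2 of 6 members were called, both higher, where 5.46% of all genes were called (3.63% higher and 1.83% lower). At E9.5, 2 of 6 were called, both lower, where 29.5% were called (14.6% higher and 14.9% lower).

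At E8.5, Slc32a1 stood at 0.498, 0.521 and 0.286 CPM in control embryos and at 2.39, 2.18 and 2.31 CPM in KI embryos. All 3 KI embryos lay above all controls, and the level was 5.20-fold higher (2.36 to 11.4; log2 2.38, SE 0.54, n = 3 a group, edgeR adjusted p = 0.0134). Without control 3 the call was lost (2.16, adjusted p = 0.0821). At E9.5 the KI embryos had 0.331, 0.429 and 1.06 CPM and the controls 0.794, 0.520 and 0.179 CPM, which overlapped, and the change of the KI effect between stages was not called (log2 -2.12, SE 0.78, edgeR adjusted p = 0.112).

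Slc18a3 changed direction between stages. At E8.5 it had 0.299, 0.298 and 0.286 CPM in controls and 0.707, 1.18 and 1.07 CPM in KI embryos, 3.31-fold higher without overlap (log2 1.73, SE 0.49, edgeR adjusted p = 0.0428). This call was fragile: it was lost in 5 of 6 fits that left out 1 embryo (adjusted p = 0.0914 to 0.132), without the filter on low counts (0.0575), with only the E8.5 embryos fitted (0.0745), and, in a paired fit with the number in the embryo titles as a block, at log2 1.71 (adjusted p = 0.0512). The embryo left out without loss of the call was KI 1. At E9.5 the controls had 1.99, 1.97 and 1.43 CPM and the KI embryos 0.331, 0.429 and 0.354 CPM. All KI embryos lay below all controls, and the level was 4.79-fold lower (2.46 to 9.34; log2 -2.26, SE 0.46, edgeR adjusted p = 0.00108). In controls Slc18a3 rose between the stages by 2.53 on the log2 scale (edgeR adjusted p = 0.000626). The KI effect at E9.5 differed from that at E8.5 by -3.99 (SE 0.67, edgeR adjusted p = 0.00125), a call kept in all 18 alternatives, and Slc18a3 was the 1 of 6 members called in this test, where 6.63% of all genes were called (3.39% higher and 3.24% lower).

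Th was at 0, 0.149 and 0.286 CPM in E8.5 controls and at 0.0884, 0.0909 and 0 CPM in E8.5 KI embryos, at most 6 reads each. At E9.5 it had 1.39, 2.15 and 1.39 CPM in controls and 0.207, 0.429 and 0.751 CPM in KI embryos. The genotypes did not overlap at E9.5, where Th was 3.55-fold lower in KI (log2 -1.83, SE 0.64, edgeR adjusted p = 0.0376). The call was lost in 5 of 6 fits that left out 1 embryo (adjusted p = 0.0583 to 0.143; it was kept without KI 3) and with reads summed over transcripts (0.0547). In controls Th rose from E8.5 to E9.5 by 3.38 (edgeR adjusted p = 0.0024), 1 of 2 members called in that comparison with Slc18a3, both higher, where 24.2% of all genes were called (12.2% higher).

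Gad1 had 3.38, 2.23 and 2.62 CPM in E8.5 controls and 4.11, 4.86 and 2.27 CPM in KI embryos. At E9.5 it had 2.70, 1.82 and 2.68 CPM in controls and 3.02, 3.05 and 2.61 CPM in KI. Genotypes overlapped at both stages. Gad2 had 0.498, 0.521 and 0.286 CPM in E8.5 controls and 0.530, 0.773 and 1.29 CPM in KI embryos, all above the controls but by little in KI 1, and was not called (edgeR adjusted p = 0.512). At E9.5 it had 0.675, 1.00 and 0 CPM in controls and 0.745, 0.858 and 0.751 CPM in KI, which overlapped. Slc17a7 had 0.249, 0.782 and 0.381 CPM in E8.5 controls and 0.442, 0.227 and 0.178 CPM in KI, and 0.913, 1.37 and 0.358 CPM in E9.5 controls and 0.538, 0.601 and 0.442 CPM in KI. It overlapped at both stages and was not called. Slc6a5 and Tph2 had at most 4 and 6 reads in any embryo. Slc17a6 had 0 reads in all 6 embryos at E8.5. At E9.5 it had 10, 16 and 12 reads in controls (0.397, 0.594 and 0.537 CPM) and 0, 4 and 0 reads in KI embryos. The pooled control level was 8.94 times that of KI (3.22 to 34.5), and the exact 2-sided permutation p was 0.1, the smallest that 3 against 3 allows. In controls it was at least 11.6-fold higher at E9.5 than at E8.5 (38 reads against a floor of 3 reads over the group). Chat had 5, 10 and 5 reads in E9.5 controls and 2, 0 and 0 in KI embryos, with the same exact permutation p of 0.1.

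**Figure D4:**
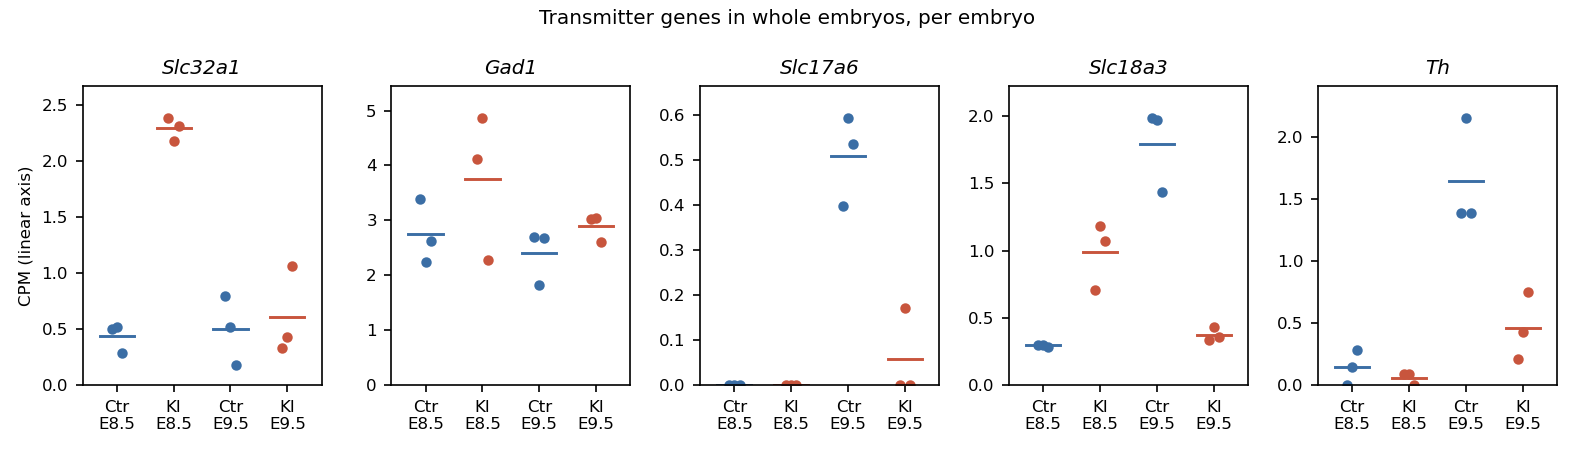
CPM on linear axes per embryo for the members followed in whole embryos; points are embryos and short bars are group means (n = 3). Slc18a3 lies at 0.707 to 1.18 CPM in KI against 0.286 to 0.299 CPM in controls at E8.5, and at 0.331 to 0.429 CPM against 1.43 to 1.99 CPM at E9.5.

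The pan-neuronal marker sum was 83.9 to 99.0 CPM in E8.5 controls and 82.9 to 99.8 CPM in KI embryos. At E9.5 it was 293 to 449 CPM in controls and 89.7 to 96.0 CPM in KI, with 10 of 12 markers lower. Per 1000 CPM of pan-neuronal marker at E9.5, Slc18a3 stood at 5.36, 4.38 and 4.88 in controls and 3.69, 4.47 and 3.86 in KI embryos, and Th at 3.75, 4.80 and 4.73 in controls and 2.31, 4.47 and 8.19 in KI. Slc17a6 stood at 1.07, 1.32 and 1.83 in controls and 0, 1.79 and 0 in KI on that scale, and Chat at 0.536, 0.827 and 0.762 in controls and 0.923, 0 and 0 in KI. All 4 genes overlapped between genotypes there. Gad1, Gad2, Slc17a7 and Slc32a1, which overlapped in CPM, were apart on that scale and higher in KI, where the divisor was lower. Gad1 stood at 7.29, 4.05 and 9.15 in controls and 33.7, 31.7 and 28.4 in KI. Gad2 stood at 1.82, 2.23 and 0 against 8.31, 8.93 and 8.19, and Slc17a7 at 2.47, 3.06 and 1.22 against 6.00, 6.25 and 4.82. For Slc32a1 the values were 2.14, 1.16 and 0.610 against 3.69, 4.47 and 11.6. At E8.5, Slc18a3 stood at 3.08, 3.01 and 3.41 in controls and 7.09, 12.0 and 12.9 in KI, and Slc32a1 at 5.14, 5.26 and 3.41 in controls and 23.9, 22.2 and 27.9 in KI, both without overlap. Other marker sums also separated the genotypes. At E8.5, 4 blood markers summed to 645 to 1219 CPM in controls and 101 to 182 CPM in KI (0 of 3 tested called by edgeR, 2 at an unadjusted p under 0.05, 2 by DESeq2), and 7 progenitor markers to 489 to 525 CPM and 409 to 444 CPM (1 of 7 lower). The 8 mesenchyme and mesothelium markers summed to 373 to 530 CPM in controls and 551 to 1220 CPM in KI, although the median log2 change of the 7 tested was -0.38 (0 called by edgeR, 3 at an unadjusted p under 0.05, 1 by DESeq2). At E9.5, progenitor markers summed to 790 to 1006 CPM in controls and 513 to 609 CPM in KI (6 of 7 lower), heart muscle markers to 300.2 to 372 CPM and 733 to 1377 CPM (5 of 6 higher), endoderm markers to 117 to 125 CPM and 289 to 425 CPM (3 of 8 higher by edgeR, 7 called by DESeq2), neural crest markers to 136 to 162 CPM and 179 to 236 CPM (2 of 4 higher), and blood markers to 2129 to 5974 CPM and 425 to 2069 CPM (0 of 3 tested called by edgeR, 2 at an unadjusted p under 0.05, 1 by DESeq2). The part of these cell types in the member differences was not tested. At E8.5, of 29 other transmitter-handling genes tested with edgeR, 0 were called (6 at an unadjusted p under 0.05, 2 called by DESeq2). At E9.5, 5 rose and 4 fell, shares near those over all genes (14.6% and 14.9%). Pnmt, which makes adrenaline, rose from 0.146 to 1.16 CPM (log2 2.93), with Slc1a6 (1.17), Maob (0.64) and the glycine transporter Slc6a9 (0.54), while Slc1a2 (-1.06), Ddc (-0.97), Aldh5a1 (-0.51) and Spr (-0.33) fell.

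Over all genes, 3.63% were called higher and 1.83% lower at E8.5, and 14.6% and 14.9% at E9.5. Of 6 cholinergic selectors tested, 1 was called at E8.5 and 3 at E9.5. Isl1 rose at E8.5 (from 12.4 to 22.5 CPM; log2 0.86), and Lhx3 (from 4.30 to 0.187 CPM; -4.50), Lhx4 (-4.51) and Lhx8 (-2.15) fell at E9.5. Of 11 glutamatergic selectors, 1 rose (Tlx1 0.87) and 2 fell (Neurog1 -2.23, Barhl2 -1.71) at E8.5. At E9.5, Tlx1 rose (1.13) and 8 fell, led by Barhl1 (-3.07), Neurod1 (-1.94), Tlx3 (-1.88) and Neurog1 (-1.73). Of 13 inhibitory selectors, 0 rose and 1 fell at E8.5, and at E9.5 1 fell and Gata3 (1.08) and Pax8 (0.94) rose. Of 11 monoamine selectors, Hand2 rose at E8.5 (0.64) and Insm1 (-2.24), En2 (-2.03) and En1 (-1.32) fell. At E9.5 Hand2 (0.96) and En1 (0.43) rose, and 3 fell, among them Insm1 (-2.39) and Lmx1a (-0.80).

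Outside the neural cultures most members were low, and Tph2, Slc17a7 and Chat had their highest levels there. Over the 29 other libraries the highest level was 0.594 CPM for Slc17a6, 0.371 CPM for Chat and 0.546 CPM for Slc6a5. These 3 genes had 0 reads in 17, 19 and 20 of the 29 libraries. Gad1 reached 5.07 CPM and was at or above 1 CPM in 19 of the 29. Slc17a7 had its highest level of all 37 libraries in the flox EB at day 4, at 2.76 CPM.

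Gad2 was higher in KI in TE and ExEn cultures. In TE it had 4 and 0 reads in flox (0.165 and 0 CPM) and 23 and 20 reads in KI (0.836 and 0.726 CPM), a pooled ratio of 9.83 (3.57 to 37.7; edgeR adjusted p = 0.00461). In ExEn it had 0.291 and 0.306 CPM in flox and 2.95 and 2.73 CPM in KI clones 27 and 48. Both clones lay above both flox libraries, and the level was 9.18-fold higher (3.49 to 24.2; log2 3.20, SE 0.65, n = 2 a group, edgeR adjusted p = 0.00148). Of 3 members tested (with Slc17a7 and Slc18a3), Gad2 was the 1 called in each setting, where 50.9% of all genes were called in TE (26.7% higher) and 35.5% in ExEn (18.1% higher). Gad2 passed the read filter through the KI libraries, where it was high, so its place among 3 tested is a description only. Slc18a3 missed the threshold in ExEn (log2 2.06, edgeR adjusted p = 0.0566). Slc18a3 had 1.07 and 1.23 CPM in flox and 0.363 and 0.726 CPM in KI in TE, and Slc17a7 0.823 and 0.921 CPM against 1.53 and 1.81 CPM, both apart but not called. In ExEn, Slc17a7 had 0.339 and 0.306 CPM in flox and 0.563 and 0.808 CPM in KI, again apart and not called. Slc32a1 had 4 and 0 reads in flox and 12 and 2 in KI in TE, and 0 reads in all ExEn libraries. Gad1 had 0.247 and 0.269 CPM in flox and 0.436 and 1.38 CPM in KI in TE, and 0.242 and 0.204 CPM against 0.0938 and 0.404 CPM in ExEn. Slc17a6, Slc6a5, Th, Chat and Tph2 had at most 4 reads in any TE or ExEn library. In the TE fit without KI clone 27, Gad1 was also called (log2 2.40, adjusted p = 0.0354). The summed pan-neuronal markers stood at 112 to 118 CPM in flox and 32.7 to 36.9 CPM in KI in TE (2 of 10 tested higher, 5 lower), and at 165 to 166 CPM and 94.4 to 110 CPM in ExEn (4 of 10 higher, 3 lower). The 8 endoderm markers, which check the ExEn label, all fell, from 1334 to 1341 CPM in flox to 188 to 205 CPM in KI. In TE, progenitor markers summed to 340 to 358 CPM in flox and 65.9 to 85.4 CPM in KI (4 of 6 tested lower), mesenchyme and mesothelium markers to 324 to 328 CPM and 65.2 to 113 CPM (6 of 7 lower), and pluripotency markers to 601 to 604 CPM and 203 to 284 CPM (4 of 4 lower). Also in TE, glia markers summed to 320 to 328 CPM in flox and 162 to 198 CPM in KI (5 of 6 tested lower), and heart muscle markers to 26.4 to 29.2 CPM and 4.18 to 4.79 CPM (3 of 6 lower). In ExEn, glia markers summed to 419 to 421 CPM in flox and 295 CPM in both KI libraries (3 of 6 lower), heart muscle markers to 34.8 to 37.3 CPM and 13.9 to 14.8 CPM (2 of 6 lower), and mesenchyme and mesothelium markers to 1913 to 2002 CPM in flox and 297 to 456 CPM in KI (2 of 7 higher, 3 lower). The part of these markers in the Gad2 difference was not tested.

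In ESCs, Tph2, the neuronal enzyme that begins serotonin synthesis, had 6 reads in the flox library (0.317 CPM) and 257 and 224 reads in KI clones 27 and 48 (10.9 and 9.42 CPM). These were its highest levels anywhere, and the pooled ratio of KI to flox was 32.0 (14.6 to 87.6). Gad2 had 0 reads in flox ESCs and 0.594 and 1.18 CPM in KI, at least 5.59-fold higher. With 1 flox library a stage there is no test by day. Of the 4 members at 1 CPM or more in some ESC library, both clones were past 2-fold (on log2 of CPM + 0.5) for Tph2 and Gad2 and not for Slc17a7 and Gad1, where 5.18% of genes at 1 CPM or more were past it in that direction (2.5% lower, 7.68% in either). In EBs at day 4, Gad2 had 0.306 CPM in flox and 2.33 and 2.85 CPM in KI (pooled ratio 8.46, 3.77 to 23.5), past 2-fold in both clones and the 1 of 3 members at 1 CPM or more that was, where 1.45% of genes were (4.43% lower, 5.88% in either direction). Tph2 had 0.204 CPM against 0.822 and 0.679 CPM there. In ESCs Tph2 and Gad2, and in EBs at day 4 Gad2, reached 1 CPM in KI libraries only. They entered these counts through the group where they were high, which favours the higher direction, so the counts are descriptions only. At day 10 Gad2 had 0.970 CPM in flox and 2.56 and 2.37 CPM in KI, and 0 of the 2 members at 1 CPM or more (Gad2 and Slc32a1) were past 2-fold in both clones, where 7.42% of genes were (3.5% higher and 3.91% lower). Slc32a1 had 26 reads in flox EBs at day 10 and 2 and 18 reads in clones 27 and 48, and Th had 15 reads in flox and 1 read in each clone. Marker sums differed in these libraries too. In ESCs, progenitor markers summed to 678 CPM in flox and 354 to 395 CPM in KI, pluripotency markers to 3523 CPM and 2972 to 3174 CPM, and pan-neuronal markers to 414 CPM and 329 to 351 CPM. In EBs at day 4, pluripotency markers summed to 663 CPM in flox and 1186 to 1251 CPM in KI, and endoderm markers to 166 CPM and 94.6 to 103 CPM. At day 10, heart muscle markers summed to 1944 CPM in flox and 195 to 290 CPM in KI, and endoderm markers to 954 CPM and 1404 to 1629 CPM. The part of these markers in the Tph2 and Gad2 differences was not tested.

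With the 3 stages in 1 fit with day as a factor, 0 of 7 members were called by edgeR, where 0.707% of all genes were called. At an unadjusted p under 0.05 there were 3, and DESeq2 called 2. Gad2 had a log2 difference of 2.42 (SE 0.60, edgeR adjusted p = 0.126; DESeq2 2.54, adjusted p = 0.00247) and Tph2 one of 3.70 (SE 0.71, edgeR adjusted p = 0.0701; DESeq2 3.30, adjusted p = 0.00227). Without the flox EB of day 4, Tph2 was called (4.82, edgeR adjusted p = 0.0191), and without that of day 10 both were (adjusted p = 0.0451 for Gad2 and 0.0468 for Tph2).

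**Figure D5:**
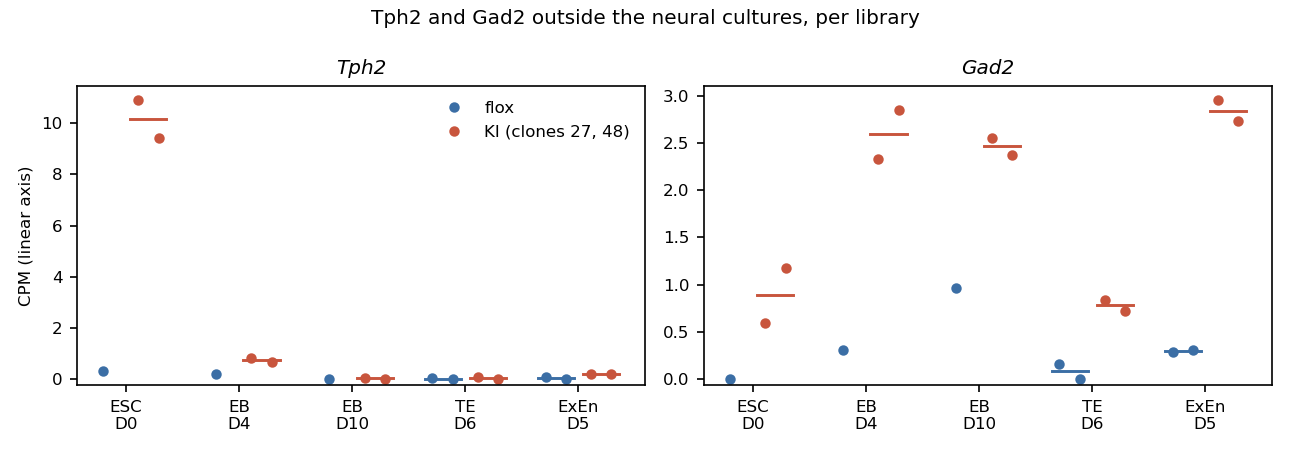
CPM on linear axes for Tph2 and Gad2 in ESC, EB, TE and ExEn libraries; points are libraries and short bars are group means. Tph2 stands at 9.42 to 10.9 CPM in KI ESCs and at 0.317 CPM in the flox ESC library, and Gad2 at 2.73 to 2.95 CPM in KI ExEn against 0.291 to 0.306 CPM in flox.

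The genes whose levels across the 37 libraries were most like each member's were found by Pearson r of log2(CPM + 0.5), among 16020 genes at 1 CPM or more in at least 2 libraries. Slc17a6 was most like A530058N18Rik (0.992), Cntnap5c (0.991) and Rit2 (0.991). For Slc32a1 these were Skor1 (0.972), Resp18 (0.969) and Marchf4 (0.968), for Gad1 Cplx1 (0.962), Scn1a (0.959) and D430041D05Rik (0.955), and for Gad2 Cadm2 (0.931) and Syt4 (0.926). Slc6a5 was most like Pcdhb6, Pcdhb10 and Actl6b, at 0.989 each. The points share groups, cultures and clones, so these values are descriptions. Th was most like Bhlhe23 (0.891), Ppp1r17 (0.872) and Gm16551 (0.871), Slc18a3 like Ano8 (0.782), Nfasc (0.777) and Cib2 (0.756), and Slc17a7 like Dmc1 (0.729), Rab19 (0.724) and 8030462N17Rik (0.708). Tph2 was most like Cd3e (0.956), Platr26 (0.945) and 1700019A02Rik (0.939), but it reached 1 CPM in 2 of 37 libraries, both KI ESCs. Chat, which reached 1 CPM in no library, was left out.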

How the data were processed

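RNA-seq gene tables of 37 libraries in 18 groups were used, of 100 samples in the series (the others not analysed here). Libraries were made from poly(A)-selected RNA, per the labels' protocols. Each table gives the authors' deposited read count and RPKM per transcript, per the file headers. The submitters' processing notes name bcl2fastq, STAR, Bowtie2, SICER 1.1 and build mm9 without roles. The read counter, annotation and use of strand are not given in the sources used here. Of 29082 transcripts, 28436 matched a symbol, and the 646 others (1.25 to 2.13% of reads) stayed as entries of their own. For each gene the transcript with the most reads over all libraries was taken. Slc6a5 has 2 transcripts with nearly the same reads. Library totals are given at the opening of the report.

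Counts were fitted with edgeR 4.0.16 in R 4.3.3 (filterByExpr, TMM, robust quasi-likelihood), with all groups of a setting in 1 fit and 95% intervals from the t quantile matching each test's p (neural, embryo, TE with ExEn, ESC with EB). Alternatives were DESeq2 1.42.0, no filter, no TMM, upper-quartile scaling, reads summed over transcripts, only the libraries compared, a replicate block and leaving out each library. Scripts were tested on simulated data. The 2 flox day 8 neural libraries differed by a chi-square per degree of freedom of 1.50, the other 22 pairs by 2.76 to 54.8, and they were kept as 2. Numbers in the E8.5 embryo titles paired the samples (same-number correlations of deviations 0.103 to 0.261), and KI clones are the same 2 lines at both days (0.184).

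The members are named in each setting, those with few reads by their range or count, and of other lists at most 4 called genes a direction by size of log2 change, apart from a few not reported here. Members and lists were chosen with earlier results of these data known.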

Additional observations from a re-analysis of the deposited data

Results flagged for a closer look

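3 members had a KI effect that differed between stages by an interaction test in edgeR. They were 2 of 9 tested in neural cultures, where 33.2% of all genes were called, and 1 of 6 in embryos, where 6.63% were. The Slc17a6 call was lost in 2 alternative runs, the Gad1 call in 5 and the Slc18a3 call in 0. In neural cultures the KI effect on Slc17a6 at day 16 exceeded that at day 8 by 1.36 on the log2 scale, with levels of 44.5 to 51.5 CPM in flox and 127 to 134 CPM in KI at day 16 and 0.185 to 0.327 CPM over the 4 libraries at day 8. For Gad1 the difference was 0.67, from overlapping genotypes at day 8 to separate ones at day 16. In embryos the KI effect on Slc18a3 changed by -3.99 between E8.5 and E9.5. All 3 embryos of a genotype lay on 1 side of the other genotype's at each stage, above the controls at E8.5 and below them at E9.5.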

How the results depend on the processing

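Of 34 called member results, 24 were called under every alternative run and 0 reversed direction. Of 386 alternative values, 40 lost the call. Leaving out 1 library at a time, the number of members called ranged from 2 to 3 at neural day 8, 3 to 5 at day 16, 6 to 7 for time in flox, 8 to 8 for time in KI, 1 to 2 for the neural interaction, 0 to 2 at E8.5, 1 to 2 at E9.5, 2 to 3 for time in control embryos, 1 to 1 for the embryo interaction, 1 to 2 in TE, 1 to 1 in ExEn and 0 to 2 in the EB course. It was 1 for the neural interaction without TMM, 1 at E8.5 without a filter, 1 there with only the libraries compared, 1 at E9.5 with summed transcripts and 2 in the EB course with DESeq2. With the replicate block it was 1 at E8.5, the paired fit in which Slc18a3 was not called, 7 for time in flox, 8 for time in KI, 2 for the neural interaction and 1 for the embryo interaction, and changed no other call where numbers pair samples. At E9.5 the block gave 3 calls, with Slc17a6 added. Same-number correlations there (-0.02 to 0.117) overlapped those at E8.5 (0.103 to 0.261), so whether title numbers pair the E9.5 embryos is not settled. For the flox neural numbers the correlation was 0.034. At day 8, 4 members that were not called changed sign with 1 library left out: Slc17a6 ranged from -0.013 (without flox library 1) to 0.73, Gad1 from -0.52 to 0.033 (without KI clone 48), Gad2 from -0.069 (without KI clone 27) to 0.39 and Slc6a5 from -0.13 (without KI clone 27) to 0.41. The cause was not tested. In the EB course edgeR called 113 genes in all, DESeq2 778, and 26 to 356 were called with 1 library left out. At E8.5 edgeR called 843 genes in all and 1321 with the replicate block, with 488 without control 1, 363 without control 3, 546 without KI 1 and 377 without KI 3. The all-gene count with 1 library left out ran from 1896 to 2362 at neural day 8 (3202 with all), 3621 to 6038 for the neural interaction (5450), 607 to 1175 for the embryo interaction (1024) and 3641 to 4967 in ExEn (5520). Leaving out 1 of 2 libraries assumes that the lone one varies like the other groups. Depth limits Chat, Tph2 and, at day 16, Th, which had few reads in neural libraries.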
